A study of Mus musculus with 4 samples.

Results

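Potassium channel subunit genes were taken as the protein-coding genes of the deposited table whose symbol is Kcn, a subfamily letter from a to v and a number, with Kcnj10 left out. The rule gave 79 genes of the 48897 listed, 21886 of which are protein-coding, and it used gene names only, no measured value. The libraries came from retinas of C57BL/6 mice (C57BL/6J in the methods of the study), labelled wild type, at postnatal day 9. At postnatal day 3 the left eyes had received 0.6 nmol of an antagomir, a chemically modified antisense oligonucleotide against miR-124-3p, in 1 μl of vitreal injection (the anti-miR-124 group), and the right eyes a scrambled sequence (the NC group), so 6 days separated injection and sampling. Each group has 2 libraries of pooled retinas from more than 1 litter, and no untreated retina was part of the comparison. Treatment and eye side cannot be told apart in this design. By the number that a left-eye and a right-eye column share, the libraries are named NC-A and anti-A (pair A) and NC-B and anti-B (pair B) in the text. The labels do not say which pair is replicate 1.

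Potassium channels let potassium ions leave or enter a cell along their gradient, and so set the resting potential and end electrical signals. Voltage-gated subunits open on depolarization, inward rectifiers and two-pore leak channels act near rest, and calcium-activated channels respond to calcium inside the cell. Modifier subunits form no channel alone and change the partner they join, and Kcne proteins are small single-span auxiliary subunits. In the retina, photoreceptors carry a voltage-gated current that the modifier Kcnv2 shapes, ganglion and amacrine cells use Kcna, Kcnc, Kcnd and Kcnq channels for firing, and glia use inward rectifiers for potassium uptake.

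The libraries held 16317239 and 17992340 counts in the NC group and 17150849 and 18726963 in the anti-miR-124 group, pair A first. A single count in a gene of 1000 bases was worth 0.176 to 0.192 TPM (a level corrected for gene length and depth, scaled to the same sum in every library). The 21 lens marker genes took 6.72% of the summed TPM in NC-A and 0.0175% to 0.0236% in the other 3, which lowers every TPM value of that library, so the tests were run on counts with TMM scaling. These libraries do not measure mature miR-124-3p. In bulk tissue, fewer cells of a type and less RNA per cell cannot be told apart.

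Of the 79 genes, 5 had no count in any library (Kcna7, Kcna10, Kcnk7, Kcnk16 and Kcnk18), which allows up to 3 counts in each, by counting error only. A mean TPM under 1 was found for 20 genes, 36 lay from 1 to under 10, 16 from 10 to under 100, and 2 at 100 or more. The 79 genes together reached 858 and 1025 TPM in NC and 1019 and 950 TPM in anti-miR-124, pair A first. With the lens genes left out of the sum, NC-A came to 919 TPM and was still the lowest.

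Kcnv2, a modifier subunit of photoreceptors, had the highest level of the 79 genes. It had 214 and 248 TPM in NC-A and NC-B and 243 and 236 TPM in anti-A and anti-B. The groups overlapped, and Kcnv2 made up between 23.9% and 25.0% of the summed TPM of the 79 genes in each library. The fitted log2 fold change, anti-miR-124 against NC, was 0.00 (standard error 0.07). Kcnv2 lies on chromosome 19 from 27322061 to 27337179 on the plus strand (GRCm38).

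**Figure D1:**
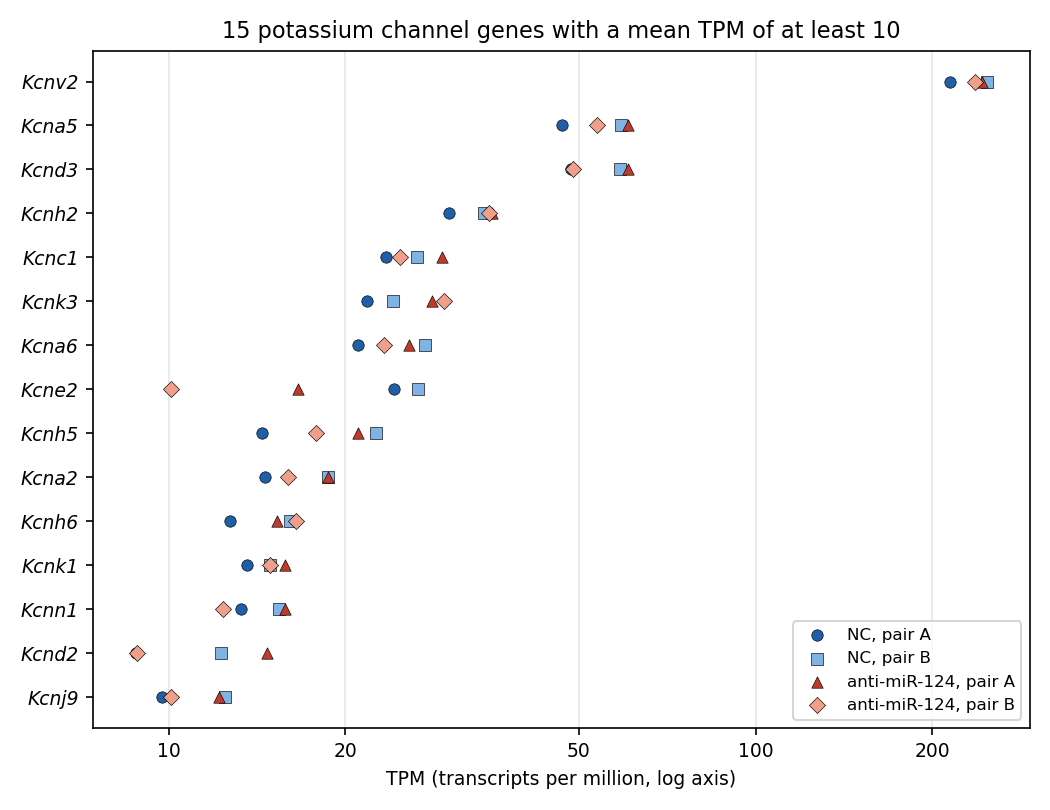
TPM of 15 of the 18 potassium channel genes with a mean of at least 10 TPM, on a logarithmic axis, with 1 symbol per library (circle and square, NC of pairs A and B; triangle and diamond, anti-miR-124 of pairs A and B). Kcnv2 lies above 100 TPM in every library, Kcna5 and Kcnd3 follow between 46.7 and 60.7 TPM, and Kcne2 has the widest spread between libraries, from 10.1 to 26.6 TPM.

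A delayed rectifier and an A-type channel were also among the highest in level. Kcna5 had a mean of 55.0 TPM and ran from 46.7 to 60.6 TPM, and Kcnd3, an inactivating channel of the somatodendritic A-type current, had a mean of 54.2 TPM and ran from 48.5 to 60.7 TPM. Kcnh2, the ether-a-go-go related rectifier, had a mean of 33.8 TPM, and Kcnc1, of the fast-repolarizing channels of rapidly firing neurons, 26.0 TPM. Kcnc1 at 26.0 TPM and Kcnk3 at 25.9 TPM did not differ beyond their spread, and the same was true of Kcna5 and Kcnd3, whose ranges overlapped. Other genes of at least 10 TPM were Kcna6 (24.3), Kcne2 (19.4), Kcnh5 (19.0), Kcna2 (17.0), Kcnh6 (15.2), Kcnk1 (14.8), Kcnn1 (14.2), Kcnd2 (11.2) and Kcnj9 (11.1), as mean TPM.

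The filter on low counts kept 62 of the 79 genes, among 17766 genes tested with edgeR's quasi-likelihood test. No potassium channel gene had an adjusted p (Benjamini-Hochberg) under 0.05, and of all tested genes 0% did. At an unadjusted p under 0.05, 3 of the 62 were higher in anti-miR-124 (Kcnk3, Kcng4 and Kcnh1; 4.84%, against 2.23% of all tested genes) and 1 was lower (Kcne2; 1.61%, against 1.68%). DESeq2 was run without that filter, on 31982 genes that included 74 of the channel genes. It called 0 channel genes and 34 genes in all at an adjusted p under 0.05. Both anti-miR-124 libraries lay above both NC libraries in TMM-scaled counts for 9 of 62 (14.5%, against 16.5% of all tested genes), and below for 3 of 62 (4.84%, against 16.8%). The median log2 fold change of the 62 was 0.05, against 0.00 over all tested genes, and their median standard error was 0.21, against 0.13. It was -0.03 without NC-A and -0.10 without anti-A.

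**Figure D2:**
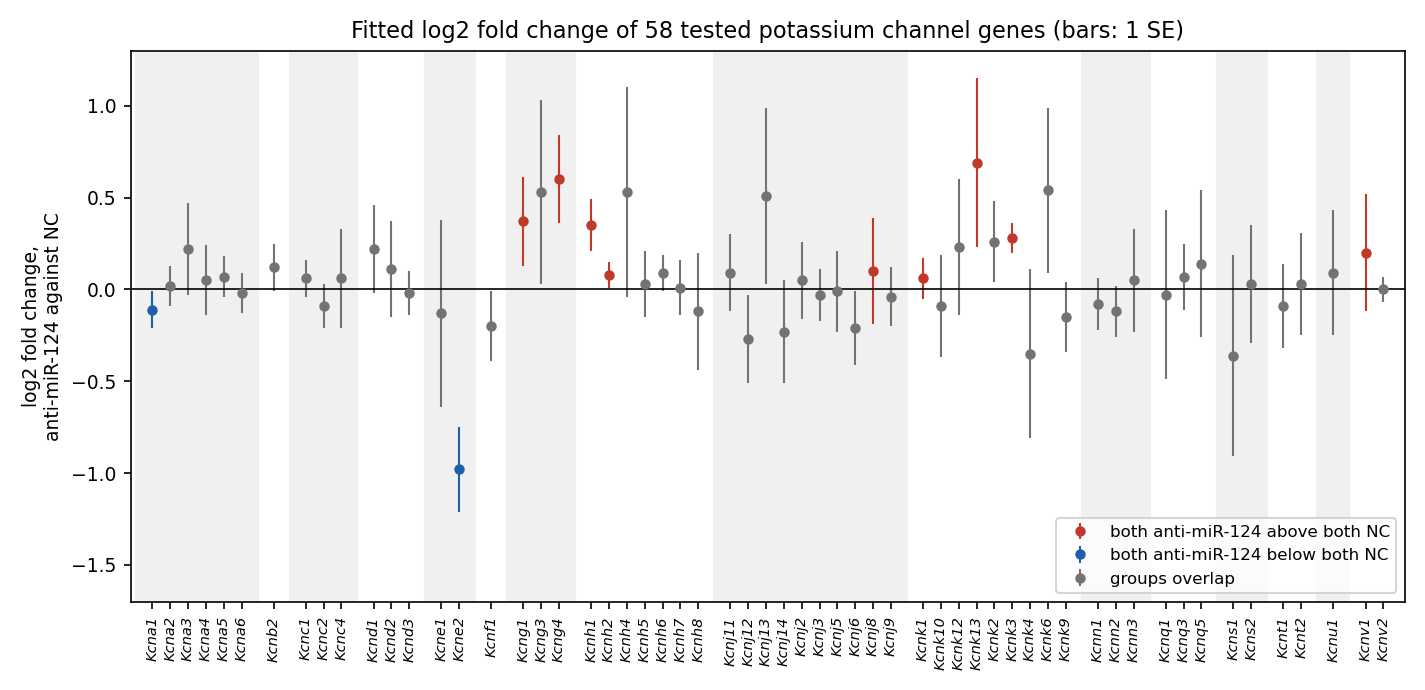
Fitted log2 fold change, anti-miR-124 against NC, of 58 of the 62 tested potassium channel genes, ordered by subfamily, with bars of 1 standard error (2 libraries per group). Colour gives whether the groups overlap in TMM-scaled counts. Kcne2 lies lowest at -0.98, Kcnk13 highest at 0.69 with a standard error of 0.46, and most genes lie within 0.3 of 0.

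Kcne2, a small auxiliary subunit known to change the gating of Kcnq1 and Kcnh2 channels, showed the largest difference below 0 among the tested genes of the group. It lies on chromosome 16 from 92292389 to 92298133 (GRCm38, plus strand). It had 302 and 339 counts in NC-A and NC-B and 203 and 135 in anti-A and anti-B, or 24.2 and 26.6 TPM against 16.6 and 10.1 TPM. Both anti-miR-124 libraries lay below both NC libraries, and anti-B was lowest. The log2 fold change was -0.98 (standard error 0.23, a ratio of 0.506; unadjusted p = 0.00416, Benjamini-Hochberg adjusted p = 0.989, edgeR). Pair A gave a log2 ratio of -0.65 and pair B of -1.38. The fold change was -0.65 on leaving out anti-B and -1.39 without anti-A, where edgeR gave an adjusted p of 0.00231. Over all alternatives the adjusted p of Kcne2 ran from 4.11e-07 (edgeR without the filter on low counts) to 1, with 0.123 from DESeq2.

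In TPM, the summed cone marker genes ranked the libraries in the same order as Kcne2, as did 4 of the 6 single genes. In CPM (TMM-scaled counts relative to library size), Kcne2 was at 18.8 in both NC libraries, 11.9 in anti-A and 7.16 in anti-B. Its order within the NC group therefore rests on TPM, which the lens genes lower in NC-A, and is not read as shared with the cone genes. The 6 cone genes summed to 633 and 692 TPM in NC and 533 and 400 TPM in anti-miR-124, pairs A and B. Both anti-miR-124 libraries were below both NC libraries for 6 of 6 (against 16.8% of all tested genes). Their median log2 fold change was -0.70. The defining markers were well measured: Opn1sw, the short-wavelength cone opsin, had 207 and 262 TPM in NC and 155 and 119 TPM in anti-miR-124, and Gnat2, the cone transducin subunit, 89.6 and 93.1 TPM against 66.2 and 42.8 TPM. The 8 rod markers summed to 6763 and 7609 TPM in NC and 7560 and 8062 TPM in anti-miR-124. Of these, 3 were higher without overlap (37.5%, against 16.5% of all tested genes) and 1 lower (12.5%, against 16.8%). The lower one, Gnat1, had 183 and 224 TPM in NC and 159 and 164 TPM in anti-miR-124 (log2 fold change -0.38, standard error 0.08). The part of the cone genes in the difference of Kcne2 was not tested. Of the other Kcne genes, Kcne1, a partner of Kcnq1, was near the limit of detection at 16, 10, 15 and 10 counts (NC of pairs A and B, then anti-miR-124), and Kcne3 and Kcne4 had at most 10 counts in a library. Kcne1 lies 47.9 kb from Kcne2, with 3 protein-coding genes between them, and its log2 fold change was -0.13 (standard error 0.51).

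Kcnk3, an acid-sensitive two-pore leak channel, had the smallest unadjusted p of the genes that were higher. It lies on chromosome 5 from 30588170 to 30625270 (GRCm38, plus strand). It had 441 and 499 counts in NC and 558 and 640 in anti-miR-124 (pairs A and B), or 21.8 and 24.1 TPM against 28.1 and 29.5 TPM. The groups did not overlap, with log2 ratios of 0.25 and 0.30 in the pairs. The log2 fold change was 0.28 (standard error 0.08, unadjusted p = 0.0111, adjusted p = 0.989, edgeR). A long noncoding RNA on the opposite strand, Gm9899, overlaps Kcnk3 and had 115 and 128 counts in NC and 113 and 127 in anti-miR-124. Whether the counting used strand is not given in the sources used here.

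Kcng4, a modifier subunit, had 59 and 68 counts in NC and 84 and 119 in anti-miR-124, pairs A and B, or 2.60 and 2.92 TPM against 3.76 and 4.89 TPM. Its log2 fold change was 0.60 (standard error 0.24, unadjusted p = 0.0428, adjusted p = 0.989, edgeR), with log2 ratios of 0.41 and 0.73 in the pairs. Kcnh1, an ether-a-go-go channel, had 151 and 164 counts in NC and 206 and 217 in anti-miR-124, or 3.71 and 3.93 TPM against 5.14 and 4.98 TPM. Its log2 fold change was 0.35 (standard error 0.14, unadjusted p = 0.0447, adjusted p = 0.989, edgeR), and the pairs gave log2 ratios of 0.36 and 0.34. Kcng4 lies on chromosome 8 from 119623854 to 119635887 (minus strand) and Kcnh1 on chromosome 1 from 192190376 to 192510159 (plus strand, both GRCm38). For both genes the lower anti-miR-124 library still lay above the higher NC library.

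Voltage-gated pore subunits, the Kcna to Kcnd, Kcnq and Kcnh genes, made up 30 of the 79, of which 27 were tested. Their median log2 fold change was 0.06, and they reached 479 and 587 TPM in NC and 589 and 548 TPM in anti-miR-124, pairs A and B. Apart from Kcnh1, only Kcnh2 had higher values in both anti-miR-124 libraries, at 51.0 and 53.5 CPM, the TMM-scaled counts relative to library size, in NC and 56.1 and 54.6 CPM in anti-miR-124, a log2 fold change of 0.08 (standard error 0.07). Kcna1, an axonal low-threshold channel, had 21.4 and 22.9 CPM in NC and 21.1 and 19.9 CPM in anti-miR-124, a log2 fold change of -0.11 (standard error 0.10). In TPM, Kcna1 overlapped between the groups. Of the 27 tested genes, 2 were higher without overlap (7.41%, against 16.5% of all tested genes) and 2 lower (7.41%, against 16.8%). Neither Kcnh2 nor Kcna1 had an unadjusted p under 0.05.

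Within the Kcna genes, which stand in clusters on the genome, neighbours were measured at unlike levels. Kcna5, Kcna1 and Kcna6 follow each other on chromosome 6 with gaps of 101 and 62.5 kb, and had mean TPM of 55.0, 7.70 and 24.3. On chromosome 3, Kcna3, Kcna2 and Kcna10 lie 52.7 and 68.1 kb apart, with mean TPM of 8.82 and 17.0 for the first 2 genes and no count for Kcna10. Kcnq1, the Kcne2 partner, had 11 to 18 counts per library, while the noncoding Kcnq1ot1 on its opposite strand had 988 to 1233 counts. The level of Kcnq1 is therefore uncertain.

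Among the 10 modifier subunits (Kcnf, Kcng, Kcns and Kcnv), 8 were tested, with a median log2 fold change of 0.12. Besides Kcng4, higher values in both anti-miR-124 libraries were found for Kcng1, at 46 and 55 counts in NC and 67 and 70 in anti-miR-124 (log2 fold change 0.37, standard error 0.24), and for Kcnv1, at 23 and 25 counts against 30 and 28 (log2 fold change 0.20, standard error 0.32). With Kcng4 these were 3 of 8 tested modifier genes higher without overlap (37.5%, against 16.5% of all tested genes). None was lower without overlap (against 16.8%), and with 8 genes nothing particular to the modifiers is read from this. Kcnf1 had 6.73 and 7.15 TPM in NC and 7.12 and 5.36 TPM in anti-miR-124, and overlapped. Kcns1 had 7 to 21 counts per library, and the difference of such a gene was not detectable at this depth.

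Of the 14 inward rectifiers (Kcnj), 10 were tested, with a median log2 fold change of -0.02. The highest in level was Kcnj9, a G-protein-gated subunit, with 9.76 and 12.5 TPM in NC and 12.2 and 10.1 TPM in anti-miR-124. Kcnj3, of the same G-protein-gated kind, and Kcnj11, the pore of ATP-sensitive channels, both had a mean of 6.47 TPM, and each overlapped between the groups. Kcnj8, a pore of vascular ATP-sensitive channels, had 29 and 35 counts in NC and 35 and 37 in anti-miR-124. Its TMM-scaled values did not overlap, but the log2 fold change of 0.10 (standard error 0.29) was well under its error. Pericyte and smooth muscle markers, a list that holds Kcnj8 itself, summed to 116 and 101 TPM in NC and 98.4 and 84.1 TPM in anti-miR-124.

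Two-pore leak channels (Kcnk) had the highest subfamily median among those with more than 3 tested genes, 0.23 over 9 of 14 genes, with 3 of 9 higher without overlap (Kcnk1, Kcnk3 and Kcnk13; 33.3%, against 16.5% of all tested genes). With 9 genes, nothing particular to the subfamily is read from this count. The median was 0.06 without NC-A, 0.00 without anti-A and 0.12 without anti-B. Kcnk1, a weakly conducting leak channel, had 16.6 CPM in both NC libraries and 17.9 and 16.6 CPM in anti-miR-124, so that the groups were barely separated. Kcnk2, a mechanically gated and lipid-gated leak channel, had 4.43 and 5.28 TPM in NC and 7.07 and 4.94 TPM in anti-miR-124 and overlapped.

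Small-conductance calcium-activated channels (Kcnn1, Kcnn2 and Kcnn3), which contribute to the afterhyperpolarization, had mean TPM of 14.2, 9.45 and 0.975. Their log2 fold changes were -0.08 (standard error 0.14), -0.12 (standard error 0.14) and 0.05 (standard error 0.28), and all overlapped. The sodium-activated Kcnt1 and Kcnt2 were at means of 2.11 and 0.821 TPM, and Kcnu1, known as a sperm channel, at 1.74 TPM with 25 to 40 counts per library. Their groups overlapped too.

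The 2 pairs of libraries went opposite ways for most channel genes. In pair A, the anti-miR-124 library was above its NC library for 48 of 62 genes (77.4%, against 48.2% of all tested genes), and the median log2 ratio was 0.19. In pair B, it was below for 42 of 62 (67.7%, against 49.4%), and the median was -0.11. The medians over all tested genes were -0.01 and 0.00. Higher in pair A and lower in pair B were 35 of 62 (56.5%, against 25.5%), and the opposite 7 of 62 (11.3%, against 27.8%). Higher in both pairs were 13 (21.0%, against 22.8%) and lower in both 7 (11.3%, against 24.0%). In TPM, these last counts were 15 and 4. Among the 18 genes with a mean of at least 10 TPM, 16 were higher in pair A and 13 were lower in pair B.

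**Figure D3:**
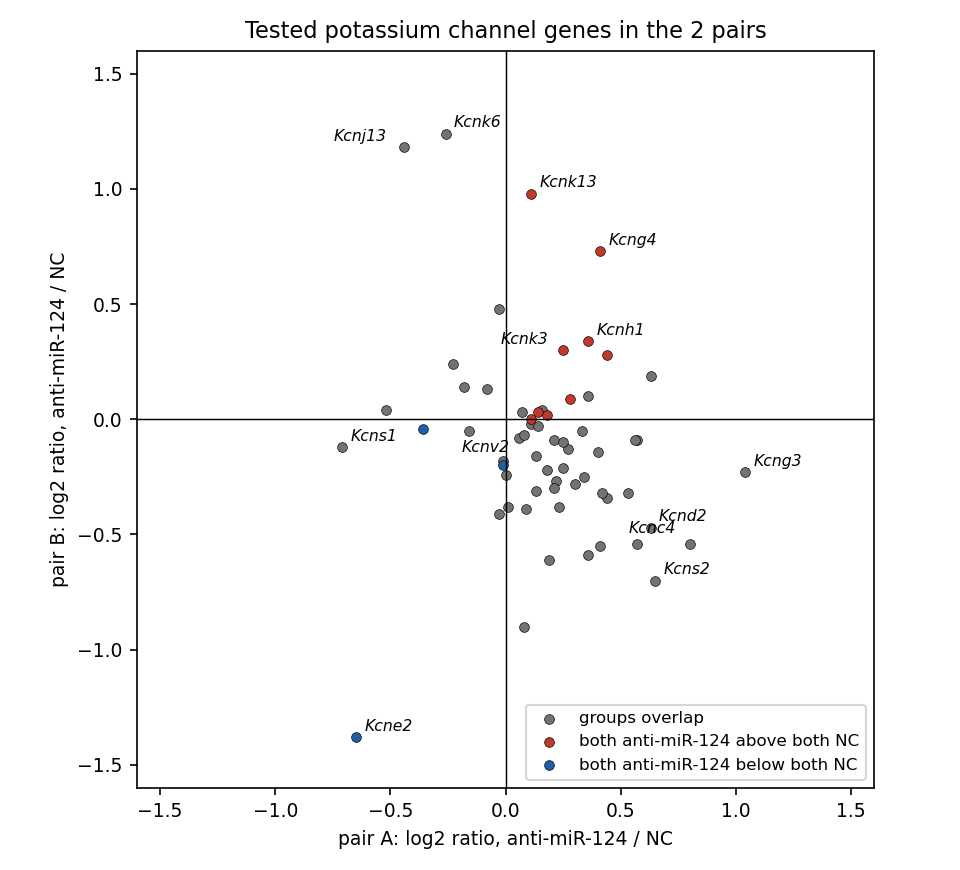
Log2 ratio of the anti-miR-124 to the NC library in pair A (horizontal axis) and pair B (vertical axis) for the 62 tested potassium channel genes, from TMM-scaled counts. The lower right field, higher in pair A and lower in pair B, holds 35 genes, and Kcne2 stands alone at the lower left.

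Kcns2, a modifier subunit, is an example at 4.66 and 6.76 TPM in NC and 7.89 and 4.13 TPM in anti-miR-124, pairs A and B. Kcnd2, an A-type channel of dendrites, had 8.79 and 12.3 TPM in NC and 14.7 and 8.82 TPM in anti-miR-124. Kcnc4, of the fast-repolarizing kind, had 6.15 and 8.10 TPM in NC and 9.84 and 5.54 TPM in anti-miR-124. In all 3, anti-A was highest, NC-B next, and the other 2 libraries lowest. Kcnq3, a subunit of the M-current, took the same order at 7.48 and 9.55 TPM in NC and 10.8 and 7.61 TPM in anti-miR-124. The log2 fold changes of these 4 genes, from 0.03 to 0.11, had standard errors of 0.18 to 0.32, and the groups overlapped for each.

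Ganglion cell markers followed the same order of libraries. The 7 genes summed to 821 and 1062 TPM in NC and 1219 and 755 TPM in anti-miR-124, pairs A and B, and 7 of 7 were higher in pair A and lower in pair B, with median log2 ratios of 0.43 and -0.48. Rbpms, a defining ganglion cell gene, had 10.8 and 14.6 TPM in NC and 15.8 and 10.4 TPM in anti-miR-124. The 7 bipolar cell markers, at 1472 and 1735 TPM in NC and 1678 and 1539 TPM in anti-miR-124, were higher in pair A and lower in pair B for 6 of 7. Amacrine markers had these directions for 4 of 6, endothelial markers for 3 of 6, rod markers for 2 of 8 and microglia markers for 0 of 15. Over all tested genes the share was 25.5%. The part of these cell types in the opposite directions of the channel genes was not tested. Voltage-gated sodium channels gave 8 of 11 and voltage-gated calcium channel pore genes 6 of 10 with these directions, while the 8 cyclic nucleotide gated and HCN channels gave 1.

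**Figure D4:**
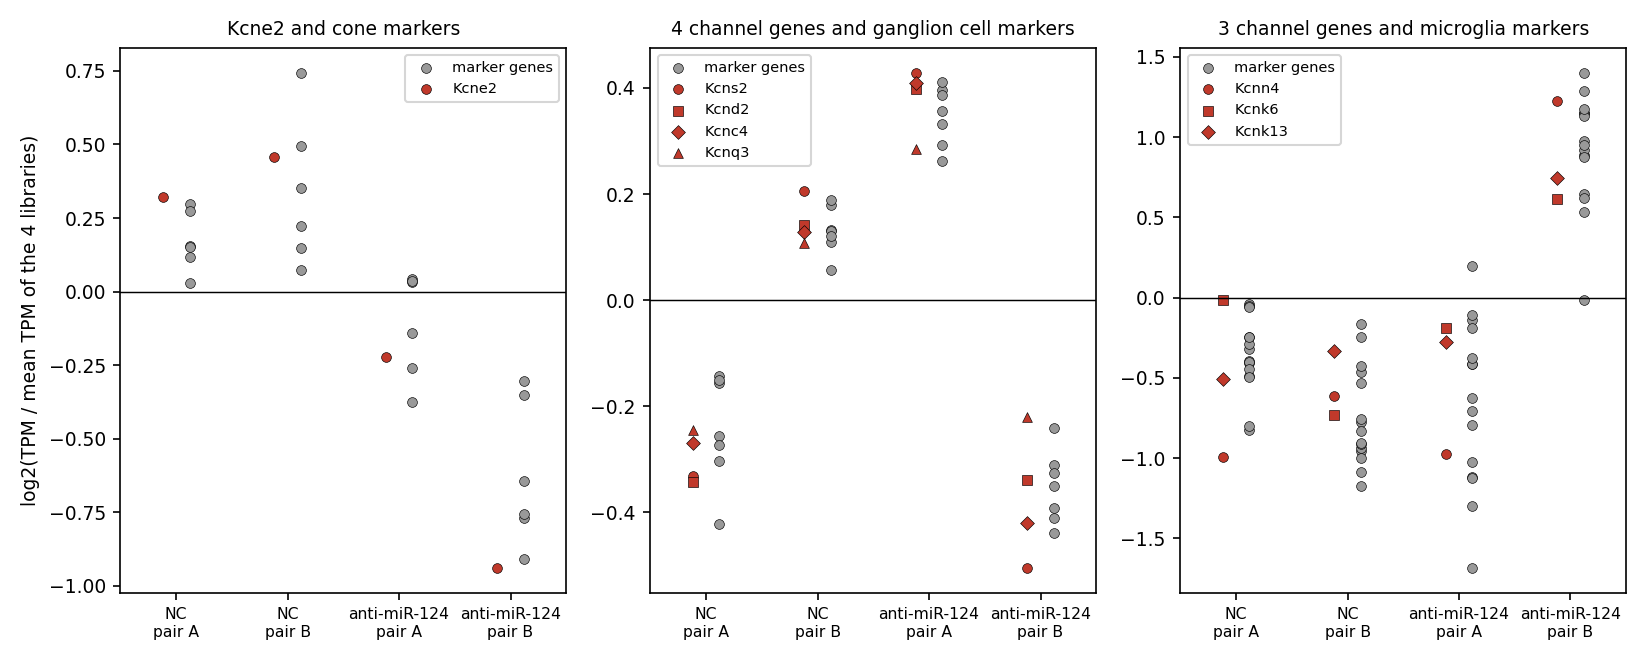
Level of single genes in each library, as the log2 of TPM over the mean TPM of the 4 libraries. Red symbols are potassium channel genes (left, Kcne2; centre, Kcns2, Kcnd2, Kcnc4 and Kcnq3, chosen after their values were seen; right, Kcnn4, Kcnk6 and Kcnk13) and grey symbols the cone (left), ganglion cell (centre) and microglia (right) marker genes. Kcne2 and the 6 cone genes are lowest in anti-B, and the 4 central channels and the ganglion genes are low in both NC-A and anti-B. Kcnn4 and most microglia genes are highest in anti-B.

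Channels known from microglia and macrophages were few in counts and high in 1 library. Kcnn4, the intermediate-conductance calcium-activated channel, had 6 and 8 counts in NC and 6 and 30 in anti-miR-124, pairs A and B, or 0.457 and 0.595 TPM against 0.464 and 2.13 TPM, and was not tested. Kcnk13, a leak channel of microglia, had 13 and 15 counts in NC and 15 and 33 in anti-miR-124, with a log2 fold change of 0.69 (standard error 0.46). Kcnk6, a weakly conducting leak channel, had 24 and 15 counts in NC and 21 and 40 in anti-miR-124, with a log2 fold change of 0.54 (standard error 0.45). Each was highest in anti-B, and without that library the log2 fold changes of Kcnk13 and Kcnk6 were 0.10 and 0.10. Kcnk6 was at 0.17 without NC-B and at 1.01 without NC-A. Kcna3, a channel of activated immune cells that neurons also use, did not have this pattern, at 65 and 105 counts in NC and 103 in both anti-miR-124 libraries.

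The 15 microglia markers summed to 277 and 223 TPM in NC and 266 and 723 TPM in anti-miR-124, pairs A and B, and 15 of 15 were higher in anti-B than in NC-B, against 5 of 15 in pair A. Csf1r, a defining receptor of these cells, had 16.0 and 13.5 TPM in NC and 18.1 and 30.5 TPM in anti-miR-124, while P2ry12, of resting microglia, stayed between 5.13 and 6.59 TPM. Reactive gliosis genes summed to 230 and 173 TPM in NC and 171 and 465 TPM in anti-miR-124. Their part in the values of Kcnn4, Kcnk6 and Kcnk13 was not tested.

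Kcnj13, the inward rectifier of the retinal pigment epithelium, had 25 and 20 counts in NC and 19 and 50 in anti-miR-124, a log2 fold change of 0.51 (standard error 0.48) that turned to -0.24 without anti-B. The pigment epithelium and melanocyte markers, at 448 and 520 TPM in NC and 543 and 482 TPM in anti-miR-124, were highest in that library for 1 of 10 genes (Tyrp1). Without Rlbp1, which Müller glia also express and which makes up most of that sum, the list came to 83.3 and 125 TPM in NC and 174 and 129 TPM in anti-miR-124. Rpe65, their defining enzyme, had 1.19 and 2.80 TPM in NC and 4.83 and 2.67 TPM in anti-miR-124. The 5 genes of the ciliary epithelium and choroid plexus list summed to 47.0 and 67.7 TPM in NC and 87.2 and 75.9 TPM in anti-miR-124. Most of that sum was Ttr, which is also in the pigment epithelium list and was highest in anti-A. Opn4 took the library order of the ganglion cell markers. The other 3 genes, Aqp1, Zic1 and Mitf, were highest in anti-B. The part of these cells in the counts of Kcnj13 was not tested. The protein-coding gene Gigyf2 overlaps Kcnj13 on the opposite strand and had 1803 to 2270 counts per library, so the counts of Kcnj13 are uncertain.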

How the data were processed

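RNA-Seq of 4 retina libraries was analysed, 2 for each group. The values are raw read counts that the authors deposited for each gene beside its length. The table also has 4 RPKM columns of the authors, which were left out here. The submitters' processing notes name HISAT2 and mm9, but of 36834 symbols matched to RefSeq GRCm38, 99.8% overlapped it in position, as did 79 of 79 channel genes, and positions are given as in the table. The labels describe a kit that marks strand. Columns were assigned to groups by the eye they name.

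TPM was computed from counts and lengths. Groups were compared by the quasi-likelihood test of edgeR 4.0.16 (R 4.3.3) with TMM normalization, filterByExpr, no covariate and Benjamini-Hochberg adjustment over 17766 genes, 2-sided, at a threshold of 0.05, in 4 libraries, checked on simulated counts. Pair ratios are differences of log2 CPM with a prior count of 2. Figures were drawn with matplotlib 3.10.9. Nothing labels the 2 libraries of a group as separate animals beyond their litters, so p-values measure the spread between these pools. No libraries were duplicates (chi-square per degree of freedom at least 3.44). That lowest value was between anti-A and NC-B, which differ in group and in pair, and the other comparisons gave 9.0 to 28.24.

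Channel genes were named by level (the 3 highest of each subfamily), by an unadjusted p under 0.05, by the 5 largest non-overlapping differences in each direction, by absence of counts, and as known genes of microglia, pericytes, pigment epithelium and photoreceptors. Of other lists, genes with an unadjusted p under 0.05 and the most abundant gene were named. Some genes that these rules name are not reported here. The members, lists and rules were chosen with earlier results of these data known, and the 4 genes that show the opposite pairs were chosen after their values were seen. Counting error is large for genes with few counts, and the standard errors include it. Alternatives were other scalings, filters, DESeq2 1.42.0, a replicate block and leaving out each library. miR-124-3p seed matches were not analysed here.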

Additional observations from a re-analysis of the deposited data

How the results depend on the processing

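Counts of calls moved with the processing. At an adjusted p under 0.05, all tested genes gave 0 calls by edgeR's quasi-likelihood test, 379 without the filter on low counts, 34 with DESeq2 and 0 to 256 when 1 library was left out. Channel genes gave 0 calls, 1 without the filter (Kcne2) and 0 to 1 when a library was left out. At an unadjusted p under 0.05, the 4 channel genes became 1 with DESeq2 and 1 to 7 without a library. Channel genes with no overlap, 9 higher and 3 lower, became 15 to 31 and 6 to 22 without a library, where a single library then stands for its group. The lower ones were 1 in TPM and 5 without the filter. Shares over all tested genes are given here for the main setting only, so nothing about the channel genes is read from these changes. Genes lower in both pairs fell from 7 to 4 in TPM. With the other pairing of the libraries, genes higher in both pairs were 21 and genes lower in both were 8. No share over all tested genes is given for that pairing, so this count is not read as a result about the channel genes. The median log2 fold change of the channel genes ran from -0.10 to 0.13 when a library was left out.

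Same-numbered libraries deviated with a correlation of -0.16 over genes, so the main test did not take the numbers as pairs. The pair ratios, and the counts of genes by pair, do rest on these numbers. With the replicate number as a block, 2 channel genes had an unadjusted p under 0.05, 0 had an adjusted p under 0.05 and Kcns2 was at -0.02. The crossed pairing as a block, added after seeing the data, called 160 genes and 1 channel gene at an adjusted p under 0.05.

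Of 48 named genes tested, 30 changed sign without 1 of the libraries, with log2 fold changes over the 4 omissions of Cnga1 (-0.03 to 0.01), Kcna2 (-0.11 to 0.14), Kcna3 (-0.02 to 0.51), Kcna5 (-0.03 to 0.17), Kcna6 (-0.14 to 0.11), Kcnb2 (-0.02 to 0.28), Kcnc1 (-0.07 to 0.19), Kcnc4 (-0.42 to 0.43), Kcnd2 (-0.31 to 0.45), Kcnd3 (-0.19 to 0.15), Kcne1 (-0.53 to 0.34), Kcnf1 (-0.43 to 0.00), Kcnh5 (-0.21 to 0.31), Kcnh6 (-0.01 to 0.20), Kcnj11 (-0.12 to 0.28), Kcnj13 (-0.24 to 1.00), Kcnj3 (-0.16 to 0.12), Kcnj9 (-0.19 to 0.10), Kcnk2 (-0.03 to 0.51), Kcnma1 (-0.32 to 0.08), Kcnn1 (-0.27 to 0.10), Kcnn3 (-0.03 to 0.14), Kcnq3 (-0.22 to 0.31), Kcns1 (-1.21 to 0.14), Kcns2 (-0.52 to 0.44), Kcnt1 (-0.25 to 0.11), Kcnt2 (-0.05 to 0.11), Kcnu1 (-0.14 to 0.37), Kcnv2 (-0.04 to 0.04) and Scn3b (-0.19 to 0.26). The cause was not tested. The other 18 named genes, Kcne2, Kcnk3, Kcng4 and Kcnh1 among them, kept their direction under every alternative compared gene by gene. The crossed pairing as a block was not among these. The seed match comparison was not run. With 2 libraries per group, a lone library left in a group is assumed to vary like the other group.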

Other observations

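Genes of ion transport outside the channel group were also measured. At an unadjusted p under 0.05 (edgeR's quasi-likelihood test), 2.23% of all tested genes were higher in anti-miR-124 and 1.68% lower. Of 18 tested auxiliary and partner subunits of potassium channels, 1 had such a p and was higher (5.56%). This was Kcne1l, an X-linked Kcne gene whose symbol falls outside the name rule, with 67.6 and 73.8 TPM in NC and 83.1 and 90.0 TPM in anti-miR-124, pairs A and B. The groups did not overlap, and its log2 fold change, 0.24 (standard error 0.08, unadjusted p = 0.0214 and adjusted p = 0.989 by edgeR), was opposite in sign to that of Kcne2. Kcnma1, the large-conductance calcium-activated channel, had 40.2 and 52.7 TPM in NC and 50.2 and 38.8 TPM in anti-miR-124, and so went opposite ways in the pairs.

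Among 8 cyclic nucleotide gated and HCN channels, Hcn4, a channel opened by hyperpolarization, had 15.8 and 19.7 TPM in NC and 23.9 and 20.8 TPM in anti-miR-124, with a log2 fold change at 0.28 (standard error 0.12) and, from edgeR, an unadjusted p of 0.0487 and an adjusted p of 0.989. Hcn4 was the only such gene of the 8 (12.5%, against 2.23% of all tested genes). The rod channel Cnga1, the most abundant, was within its error at -0.01 (standard error 0.06). Of 10 calcium channel pore genes, Cacna1h, a low-threshold channel, had 31.8 and 39.8 TPM in NC and 43.8 and 45.8 TPM in anti-miR-124, with a log2 fold change at 0.28 (standard error 0.09), an unadjusted p of 0.0168 and an adjusted p of 0.989 from edgeR. Cacna1f, the photoreceptor calcium channel and the most abundant, was at -0.13 (standard error 0.07). Of 11 tested sodium channel genes, 0 had an unadjusted p under 0.05 by edgeR. Scn3b, an auxiliary subunit and the most abundant, was at 0.05 (standard error 0.15). With so few genes in each list, nothing particular to a list is read from these counts.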
